A study of Mus musculus with 4 samples.

Results

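LGE ventricular zone progenitors were examined in droplet single-cell RNA sequencing of the lateral ganglionic eminence (LGE) of wild-type C57BL/6 mouse embryos at E12.5. They were chosen by their measured levels of 2 genes, with much Nes, the intermediate filament gene of neural progenitors, and little Dcx, a microtubule-binding gene of young neurons. The gate asked for ln(1 + UMIs per 10000) of Nes above 1.5 and of Dcx at most 1.5, where a UMI (unique molecular identifier) counts 1 captured transcript. It held 589 of the 4810 LGE cells that passed the quality limits, or 12.2% [11.3–13.2] of them. Below, these 589 cells are called LGE VZ cells, a name for the gate and not for a position in the tissue. The same gate held 520 of 4852 MGE cells (medial ganglionic eminence), 165 of 3248 CGE cells (caudal ganglionic eminence) and 906 of 3634 cells of the dorsal cortex (CTX). Each region gave 1 library of tissue pooled over embryos of both sexes, so no spread between embryos or dissections was measured and no test was made. Levels are CPM, the UMIs of a gene per 1000000 UMIs summed over the cells of a group. Brackets give exact 95% intervals, which cover counting error only, and a ratio beside a bracket is a ratio of CPM.

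The ventricular zone lines the ventricle of the embryonic forebrain and holds radial glia, the dividing stem cells from which neurons descend. In the LGE these cells carry the homeodomain factor Gsx2, and their descendants become GABAergic neurons, among them the projection neurons of the striatum and interneurons of the olfactory bulb. Notch signalling holds radial glia in the progenitor state through Hes genes, while cells that move towards neurogenesis present the Notch ligand Dll1 to their neighbours. Dlx genes then drive the GABAergic programme.

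The LGE VZ cells carried 5042850 UMIs in all, with a median of 8407 UMIs and 3322 genes per cell, against 6946 UMIs and 2882 genes in the other 4221 LGE cells. The median was 9939.5 UMIs in the MGE, 9434 in the CGE and 8483.5 in the CTX cells of the gate. A member held a median of 4 Nes UMIs, with a range from 1 to 16, and 7 members passed on a single Nes UMI. No Dcx UMI was found in 484 members, and 105 had some. Cell barcodes shared by pairs of libraries numbered 4 to 15 before filtering, and none was shared among cells of the gate. Predicted doublets made up 15 of the 589 members (2.55%) and 258 of the 4810 kept LGE cells (5.36%). They were kept, since the gate names no doublet filter.

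**Figure D1:**
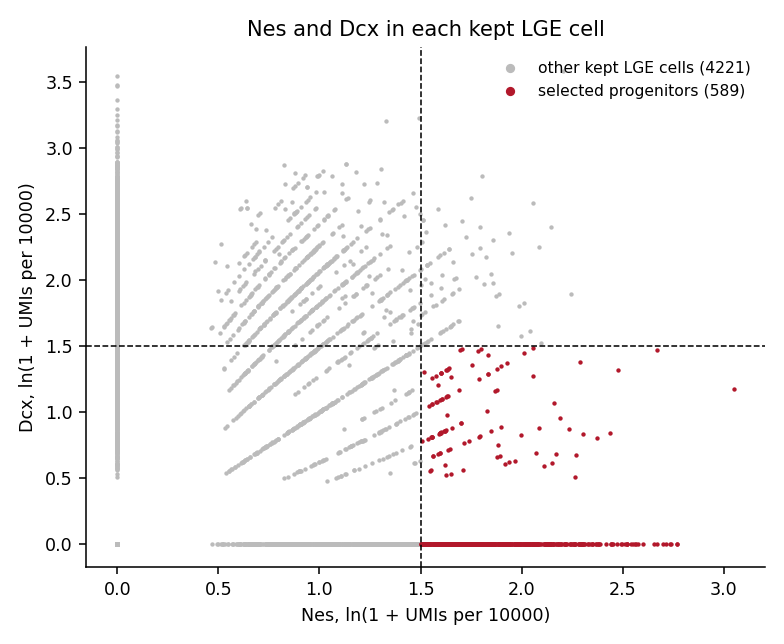
Each point is 1 kept LGE cell, placed by its Nes (horizontal axis) and Dcx (vertical axis) level in ln(1 + UMIs per 10000), with dashed lines at the limits of 1.5. The 589 selected cells in red fill the lower right, most of them at a Dcx level of 0, and 79 cells lie above both limits.

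The label was checked against its other markers, which the gate did not use. Hes5, a Notch target of radial glia, was at 600.5 CPM in the VZ cells and 115 CPM in the other LGE cells. Gsx2 lay at 64.2 CPM in the VZ cells and 27.7 CPM in the other LGE cells, and Shisa2, which encodes an inhibitor of Wnt and FGF receptors, at 147 CPM in the VZ cells and 58.8 CPM in the other LGE cells. All 3 markers were therefore higher in the VZ cells than in the rest of the library, with ratios of 5.21 [4.96–5.47], 2.32 [2.03–2.63] and 2.5 [2.29–2.72]. None of them singled out the LGE among cells of the same gate. Hes5 stood at 600.5 CPM in LGE against 1090.2 in MGE, 1013 in CGE and 479 in CTX, so that the LGE level lay below both other eminences. Gsx2 was at 64.2 CPM in LGE against 38.6 in MGE, 79.2 in CGE and 0 in CTX, and the ratio to the CGE was 0.812 [0.656–1.01]. Shisa2 lay at 147 CPM in LGE against 12.1 in MGE, 2.64 in CGE and 121 in CTX, so that the LGE lay far above the other eminences, while its ratio to the cortex was 1.22 [1.1–1.34].

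Among markers of the neighbouring regions, Nkx2-1, Emx1 and Nr2f2 were at or near 0 in the LGE VZ cells. Nkx2-1, the defining factor of the MGE, had 1 UMI in all of them, or 0.198 CPM, against 553 CPM in the MGE cells of the gate. Emx1, a factor of the cortex, had no UMI in the LGE cells and stood at 165 CPM in the cortical ones. Nr2f2, a factor of the CGE, was at 3.17 CPM in LGE against 45.4 in MGE, 388 in CGE and 2.57 in CTX. Of the 6 listed MGE genes 2 reached 50 CPM against the MGE and both stood at least 2-fold lower in the LGE. Of the 6 listed CGE genes 5 reached it against the CGE and all 5 stood lower. Other genes of these lists were present. The MGE list summed to 56.7 CPM in LGE, 774 in MGE, 47.5 in CGE and 2.19 in CTX. The CGE list summed to 175 CPM in LGE, 429 in MGE, 2301 in CGE and 575 in CTX, with Nr2f1 at 111 CPM in LGE.

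**Figure D2:**
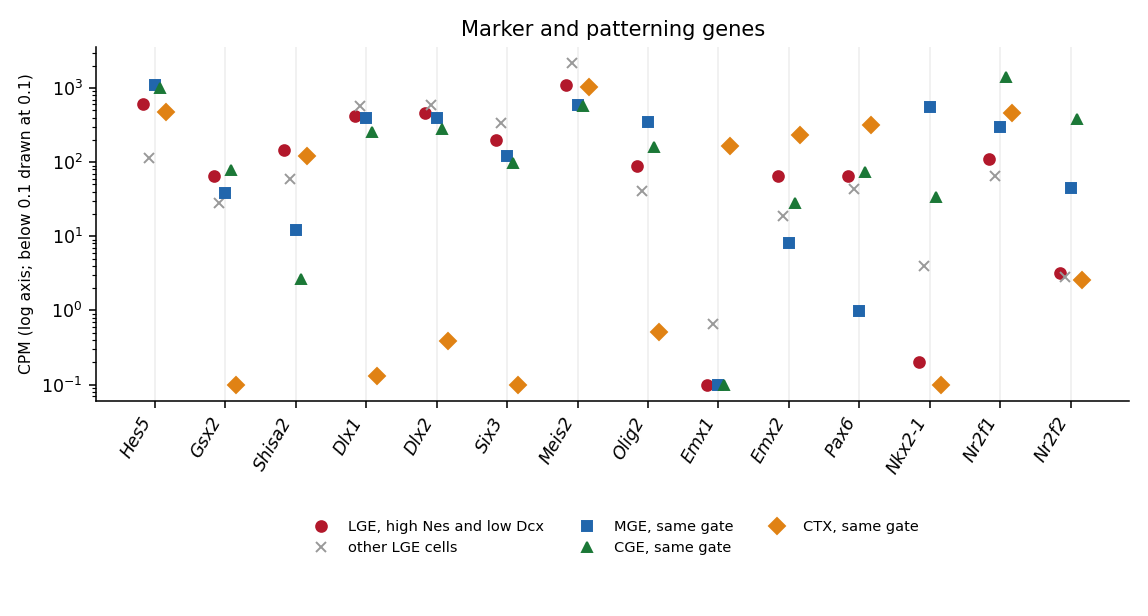
CPM (log axis) of 14 marker and patterning genes in the LGE VZ cells, the other LGE cells and the MGE, CGE and CTX cells of the same gate, each symbol being the sum over 1 group of cells. The LGE VZ cells share Gsx2, Dlx1, Dlx2 and Six3 with the other eminences and Shisa2 with the cortex. For Emx2 they lie between the other eminences and the cortex, and for Emx1 and Nkx2-1 at or near the floor.

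The rule used Nes and Dcx of these cells, so values around its limits are given once, as a description. The 286 cells with low Dcx and Nes up to 0.25 below the limit had 374 CPM of Hes5, 125 CPM of Slc1a3 and 863 CPM of Tubb3. The 252 members up to 0.25 above it had 519.6 CPM, 161 CPM and 659 CPM of the same genes, and the 337 members beyond that had 663 CPM, 262 CPM and 344 CPM. Hes5 and Slc1a3 were thus higher and the neuronal tubulin Tubb3 lower with each step of Nes, below the limit as above it. On the Dcx side the groups were not bands of 0.25 but took all cells on each side. Their spacing can therefore not be set against that of the Nes bands. The 79 cells above both limits had 46.8 CPM of Hes5, 9.36 CPM of Slc1a3 and 2847 CPM of Tubb3. The 105 members with some Dcx lay between, with 328 CPM of Hes5 and 1326 CPM of Tubb3, against 658 CPM and 304 CPM in the 484 members with none. Gad2, a gene of GABA synthesis, was at 271 CPM in these 105 members and 50.2 CPM in the 484.

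Set against the other LGE cells, which the gate itself separated from them, the members are described with no inference drawn. Of 4150 genes at 50 or more CPM in either sum, 4.43% stood at least 2-fold higher in the VZ cells and 7.25% at least 2-fold lower, with a median log2 ratio of 0.08 over all of them. Of 16 radial glia genes, 15 reached that level, 11 stood at least 2-fold higher and none 2-fold lower, with a median log2 ratio of 1.97. Fabp7, a fatty acid carrier of radial glia, lay at 1622 CPM in the VZ cells and 264 CPM in the other LGE cells. The glutamate transporter Slc1a3 stood at 218 CPM in the VZ cells and 32.8 CPM in the other LGE cells, and the chloride channel gene Ttyh1 at 217 CPM in the VZ cells and 33.1 CPM in the other LGE cells. Vim, the other main filament gene of radial glia, was at 1538 CPM in the VZ cells and 497 CPM in the other LGE cells.

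The 10 genes with the highest ratios to the other LGE cells by the bound nearest 1 were Ptx3, Hmga2, Slc1a3, Ttyh1, Sparc, Fabp7, Fgfbp3, Mt3, Vit and Rgcc. Ptx3, which encodes a secreted pentraxin and lies within Veph1, lay at 92.2 CPM in the VZ cells and 12.6 CPM in the other LGE cells, a ratio of 7.31 [6.38–8.37]. Hmga2, a chromatin protein gene of fetal stem cells, stood at 208 CPM in the VZ cells and 30.7 CPM in the other LGE cells, a ratio of 6.78 [6.21–7.41]. Mt3, a metallothionein gene, was at 673 CPM in the VZ cells and 118 CPM in the other LGE cells, a ratio of 5.73 [5.47–6.0]. The set mixes secreted and matrix genes (Ptx3, Sparc, Vit), a carrier of FGFs (Fgfbp3) and glial transport genes. At the other end were Sst, Tac1, Npy, Clmp, Myt1l, Ina, Ebf1, Actl6b, Aldh1a3 and Mapt, neuropeptides and genes of differentiated neurons. Ebf1, a factor of striatal projection neurons, lay at 26.2 CPM in the VZ cells and 459 CPM in the other LGE cells, and Tac1, which encodes substance P, at 1.59 CPM in the VZ cells and 106 CPM in the other LGE cells.

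The neurogenic commitment list showed where within that programme the gate cut. All 21 genes reached 50 CPM, 13 stood at least 2-fold lower in the VZ cells and 1, Btg2, 2-fold higher, with a median log2 ratio of −1.58. Beside Btg2, the other 5 measured genes of committed progenitors lay less than 2-fold apart on both sides of the gate. Gadd45g, a stress-response gene of cells leaving the cycle, stood at 227 CPM in the VZ cells and 202 CPM in the other LGE cells, and Hes6, an inhibitor of Hes1, at 244 CPM in the VZ cells and 232 CPM in the other LGE cells. The early GABAergic factors Dlx1 and Dlx2 was at 418 and 463 CPM in the VZ cells against 576 and 589.5 CPM in the others. The later Dlx5 lay at 69.4 CPM in the VZ cells and 322 CPM in the other LGE cells, and Gad2, an enzyme of GABA synthesis, at 88.6 CPM in the VZ cells and 500.3 CPM in the other LGE cells. Dlx1 and Dlx2 are thus part of the members' profile, while Dlx5, Sp9, Gad1 and Gad2 lay lower by at least 2-fold.

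**Figure D3:**
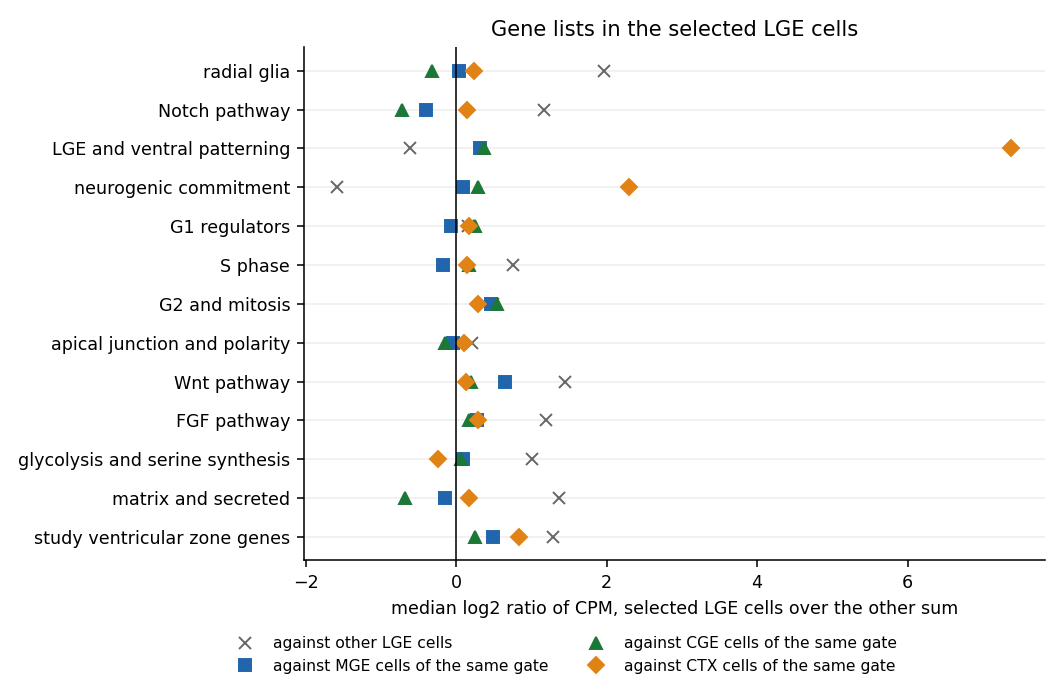
Median log2 ratio of CPM (horizontal axis) of the LGE VZ cells over the other LGE cells and over the MGE, CGE and CTX cells of the same gate, for 13 gene lists, using genes at 50 or more CPM in either sum. Radial glia genes lie at 1.97 against the other LGE cells and near 0 against the MGE, while ventral patterning genes lie at 7.38 against the CTX.

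Metabolic, matrix and junction genes were compared with the other LGE cells next. Of 13 measured genes of glycolysis and serine synthesis 7 stood at least 2-fold higher, with a median log2 ratio of 1.01. Phgdh, the first enzyme of serine synthesis, stood at 443 CPM in the VZ cells and 144 CPM in the other LGE cells, Psat1, the next enzyme of that route, at 274 CPM in the VZ cells and 81.5 CPM in the other LGE cells, and lactate dehydrogenase Ldha at 475 CPM in the VZ cells and 184 CPM in the other LGE cells. Between regions the list lay close together, at a median log2 ratio of 0.09 against the MGE, 0.06 against the CGE and −0.24 against the CTX. Of 8 measured matrix and secreted genes 4 stood at least 2-fold higher and 1 lower than in the other LGE cells. Sparc, a matrix glycoprotein gene, was at 131 CPM in the VZ cells and 19.5 CPM in the other LGE cells, the integrin gene Itga6 at 71.6 CPM in the VZ cells and 17.8 CPM in the other LGE cells, and the proteoglycan gene Vcan, the lower member, at 97.6 CPM in the VZ cells and 239.6 CPM in the other LGE cells. Genes of apical junctions and polarity, which anchor radial glia at the ventricle, had a median log2 ratio of 0.21, and none of 8 measured ones passed 2-fold either way.

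The regional comparison asked how VZ cells of the LGE differ from those of the other eminences and of the cortex. The 3 comparisons share the LGE sum, so their values are set side by side. At 50 or more CPM in either sum, 1.71% of 3925 genes stood at least 2-fold higher in LGE than in MGE VZ cells and 1.1% lower. Against the CGE, 1.26% of 4036 genes stood higher and 2.03% lower. Against the CTX, 3.47% of 4061 genes stood higher and 2.73% lower. The median log2 ratio over all genes was 0.03, 0.02 and 0.01 in these comparisons, so the scaling is close to even.

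Genes of retinoic acid signalling, a pathway of striatal development, were mostly low. Crabp2, which carries retinoic acid within the cell, was at 33.3, 69.5, 6.6 and 34.5 CPM in LGE, MGE, CGE and CTX. Aldh1a3, which makes retinoic acid, lay at 4.16 CPM in the VZ cells and 87.7 CPM in the other LGE cells, far lower in the VZ cells. The receptor gene Rxrb lay between 44.2 and 56.4 CPM in the 4 regions, and Rarb stood at 2.97 CPM in the VZ cells and 23.8 CPM in the other LGE cells. Aldh1a1 and Aldh1a2 had no UMI in the LGE VZ cells.

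Genes that set the LGE VZ cells above all 3 regions included Cntnap2, Gad2, Flrt2, Fgfbp3, Ntm, Mest, Zfhx3, Gm11627 and Necab2. Mest, an imprinted hydrolase gene (ENSMUSG00000051855.11, chr6:30723547-30748465), was at 527 CPM in LGE, 165 in MGE, 227 in CGE and 51.9 in CTX. Its lowest ratio was 2.32 [2.08–2.61], to the CGE. Cntnap2, which encodes a neurexin-like adhesion protein (chr6:45059357-47304213), lay at 54.9 CPM in LGE, 5.55 in MGE, 3.3 in CGE and 11.7 in CTX, and many annotated genes lie within it. Fgfbp3 stood at 212 CPM in LGE, 89.1 in MGE, 80.5 in CGE and 61.1 in CTX. Gad2 was at 88.6 CPM in LGE against 23.2 in MGE and 25.1 in CGE, and had no UMI in the CTX cells. Within the LGE VZ cells it was higher in members with some Dcx, as given above. The genes above all 3 regions thus include 3 genes of cell-surface proteins, Cntnap2, Flrt2 and Ntm. Gad2, Flrt2 and the factor gene Zfhx3 were higher still in the other LGE cells, at 500.3, 189 and 364 CPM, whereas Fgfbp3, Ntm, Gm11627 and Necab2 were lower there, at 32.9, 23.9, 13.9 and 16.3 CPM. Among cells outside the gate, all of these genes but Fgfbp3 were also highest in the LGE library. Flrt2 was at 189 CPM there against 16.4, 36.4 and 46.1 CPM in the other MGE, CGE and CTX cells. Cntnap2 and Ntm lay close to the next library, with ratios of 1.05 [0.965–1.15] to the CTX and 1.02 [0.91–1.14] to the CGE. The order is thus mostly not particular to the VZ cells.

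The genes lowest in LGE against all 3 regions were Gm3764, Kcnq1ot1, Nr2f1, AW047730, Fhl1, Igfbp5, Nfix, Bok, Dpysl3 and Zfp462. The long non-coding RNA Gm3764 lay at 124 CPM in LGE, 475 in MGE, 427 in CGE and 693 in CTX. AW047730 stood at 20.0 CPM in LGE, 69.5 in MGE, 63.3 in CGE and 138 in CTX. Both lie within 30 kb on chromosome 3, AW047730 at chr3:88200623-88203481 and Gm3764 at chr3:88206813-88229959, and the annotation places the microRNA gene Mir9-1 inside Gm3764. Kcnq1ot1, an imprinted transcript antisense to Kcnq1, was at 53.3 CPM in LGE, 167 in MGE, 159 in CGE and 255 in CTX, and whether its reads were told apart from those of Kcnq1 is not known, since no source states strand-aware counting. Nr2f1, a nuclear receptor gene graded towards the caudal forebrain, lay at 111 CPM in LGE, 300.1 in MGE, 1393 in CGE and 459.9 in CTX. Nfix, a factor gene that times neural stem cells, stood at 153 CPM in LGE, 266 in MGE, 288 in CGE and 764 in CTX. Cells outside the gate often had the same order. Gm3764 was at 159 CPM in the other LGE cells against 527, 502 and 554 CPM in the other MGE, CGE and CTX cells. For Nr2f1 these levels were 65.6 against 315, 1428 and 423 CPM. Kcnq1ot1, AW047730, Igfbp5, Nfix and Zfp462 were also lowest in the other LGE cells, whereas Fhl1, Bok and Dpysl3 were not. The imprinted genes Mest and Kcnq1ot1 thus lie at opposite ends of the regional ranking.

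**Figure D4:**
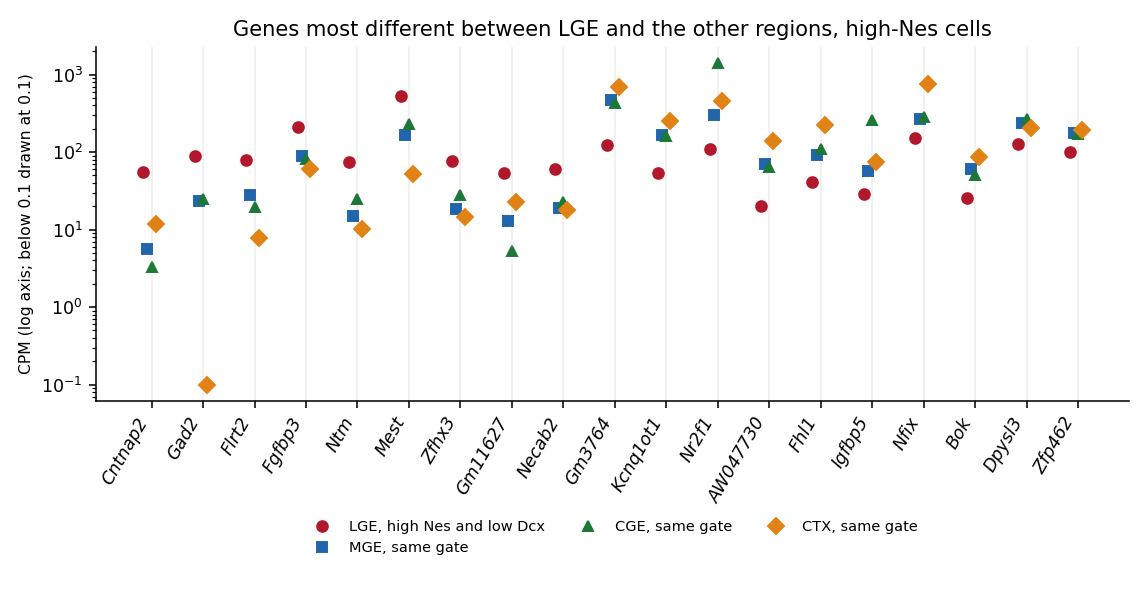
CPM (log axis) of 9 genes high and the 10 genes lowest in LGE among cells of the same gate in LGE, MGE, CGE and CTX. Mest lies at 527 in LGE and 51.9 in CTX, and the LGE symbol is the topmost for the first 9 genes and the lowest for the last 10.

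Radial glia genes were not a single block across regions. Of 15 measured genes 3 stood at least 2-fold higher in LGE than in MGE VZ cells (Slc1a3, Nr2e1 and Pax6) and none lower, at a median log2 ratio of 0.03. Slc1a3 was at 218 CPM in LGE, 69.5 in MGE, 177 in CGE and 93.6 in CTX, highest in the LGE. Against the CGE none stood higher and 3 lower (Fabp7, Ptprz1 and Ednrb), at a median of −0.33. Fabp7 lay at 1622 CPM in LGE, 1572 in MGE, 6822 in CGE and 907 in CTX, with the CGE cells far above the rest. Against the CTX 3 stood higher (Slc1a3, Ptprz1 and Ednrb) and 3 lower (Hes1, Pax6 and Lhx2), at a median of 0.23. Ptprz1, a receptor phosphatase gene of radial glia, stood at 573 CPM in LGE, 416 in MGE, 1167 in CGE and 86.9 in CTX.

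The neurogenic list was compared next. Of 18 measured genes 5 stood at least 2-fold higher than in the CGE and none lower, namely Insm1, Dlx5, Dlx6os1, Gad2 and Stmn2. Against the MGE only Gad2 stood higher, none lower, and against the CTX 12 stood higher and none lower. The medians of log2 ratios were 0.09, 0.29 and 2.30 against MGE, CGE and CTX. Insm1 was at 265 CPM in LGE, 399.8 in MGE, 94.3 in CGE and 54 in CTX, and the transcript Dlx6os1, antisense to Dlx6, at 118 CPM in LGE, 68 in MGE, 32.3 in CGE and 0.129 in CTX. Both lay low in the CGE.

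Patterning genes were read from the ventral to the dorsal side. Against the MGE 1 of 9 measured genes of the LGE and ventral list stood at least 2-fold higher (Meis1) and 1 lower (Olig2), at a median log2 ratio of 0.31. Against the CGE 1 of 9 stood higher (Six3) and none lower, at a median of 0.37. Against the CTX 7 of 9 stood higher and none lower. The median log2 ratio of 7.38 is that of Gsx2, which had no cortical UMI and enters at the bound that 3 UMIs give. Dlx2 lay at 463 CPM in LGE, 396 in MGE, 276 in CGE and 0.386 in CTX, and Dlx1 at 418 CPM in LGE, 399.8 in MGE, 254 in CGE and 0.129 in CTX. Six3, a factor of the anterior forebrain, stood at 198 CPM in LGE against 121 in MGE and 98.3 in CGE, and had no cortical UMI. Meis2, a factor of striatal and cortical progenitors, was at 1110.1 CPM in LGE, 582 in MGE, 578 in CGE and 1031 in CTX. Olig2 lay at 87.8 CPM in LGE, 343 in MGE, 159 in CGE and 0.514 in CTX, lower in the LGE than in both other eminences. Gsx2 was found at 3000 UMIs in 17.9% [14.8–21.3] of LGE VZ cells (37% at full depth) and in 0 of 878 CTX cells. A count of 0 allows up to 0.342% of such cells with a UMI, as 3 cells of 878 would give, and this limits detection at that depth, not expression.

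On the dorsal side, all 6 measured genes stood at least 2-fold lower than in the CTX, at a median log2 ratio of −6.41. Emx2 and Pax6 were the 2 of them at 50 or more CPM in the LGE. Emx2, a factor of cortical patterning, stood at 64.8 CPM in LGE, 8.12 in MGE, 28.4 in CGE and 233 in CTX, so that the LGE held 7.98 [5.76–11.3] times the MGE level. Pax6, the dorsal factor whose domain ends in the dorsal LGE, was at 66 CPM in LGE, 0.991 in MGE, 73.2 in CGE and 320.2 in CTX. Their shares at 3000 UMIs were 17% [14–20.3] and 18.2% [15.1–21.6] of LGE VZ cells (35.5% and 36.5% at full depth). The MGE cells of the gate gave 1.93% [0.931–3.53] and 0.193% [0.0049–1.07] (6.73% and 0.769% at full depth). Emx1, Dmrt3 and Wnt8b, in contrast, had no UMI in LGE VZ cells, and Neurog2, the proneural factor of the cortex, lay at 4.36 CPM in LGE, 0 in MGE, 22.4 in CGE and 320.1 in CTX.

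The Notch pathway was read by role. Of 23 genes, 9 reached 50 CPM against the other LGE cells, 5 of them stood at least 2-fold higher and none lower, at a median log2 ratio of 1.16. Among ligands, Dll1 stood at 64.1 CPM in the VZ cells and 51.2 CPM in the other LGE cells, and Dll3, which acts within the signalling cell, at 55.1 CPM in the VZ cells and 75.3 CPM in the other LGE cells. These were the 2 of 5 listed ligands that reached 50 CPM, and both lay less than 2-fold apart inside and outside the gate. The 5 ligands summed to 140.6 CPM in the VZ cells and 132.8 CPM in the other LGE cells. The ligands under 50 CPM are not described singly here. Among receptors, Notch1 was at 259 CPM in the VZ cells and 116 CPM in the other LGE cells, Notch2 at 48.6 CPM in the VZ cells and 9.62 CPM in the other LGE cells and Notch3 at 54.9 CPM in the VZ cells and 12 CPM in the other LGE cells. Of the fringe enzymes, which modify the receptors, Lfng lay at 36.7 CPM in the VZ cells and 7.62 CPM in the other LGE cells and Mfng at 84.5 CPM in the VZ cells and 116 CPM in the other LGE cells, in opposite order. Notch2, Lfng and the target gene Hey1, given next, were under 50 CPM in both sums and are not counted above. Among targets, Hes1 at 50.8 CPM in the VZ cells and 8.21 CPM in the other LGE cells, Hey1 at 45.4 CPM in the VZ cells and 10.5 CPM in the other LGE cells and the feedback inhibitor gene Nrarp at 108 CPM in the VZ cells and 27.2 CPM in the other LGE cells.

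Between regions, the summed level of the 23 Notch genes was 1591 CPM in LGE, 2391 in MGE, 2579.8 in CGE and 1407 in CTX cells of the gate. The median log2 ratio of LGE over MGE was −0.41 with 1 of 10 genes at least 2-fold lower (Mfng), and over CGE −0.72 with 3 of 12 lower (Nrarp, Lfng and the ligand Jag1). No gene of the list stood 2-fold higher in LGE than in either. Nrarp stood at 108 CPM in LGE against 181 in MGE, 293 in CGE and 112 in CTX. Hes1 was at 50.8 CPM in LGE against 63.4 in MGE, 101 in CGE and 143 in CTX, with a ratio of LGE to MGE of 0.801 [0.677–0.947]. Against the CTX 2 of 12 genes stood lower, Hes1 and Hey1, and 2 higher, Dll1 at 64.1 against 23.4 CPM and Dll3 at 55.1 against 3.86 CPM.

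The sequence just before the start sites of Hes5, Lfng and Dll1 is shown. They are examples picked from the genes whose levels divide the members, as described next. Capitals mark TGGGAA or its reverse complement TTCCCA, the core letters bound by RBPJ, the DNA-binding partner of Notch, in Hes5 and Lfng, and CAGCTG, an E-box form bound by basic helix-loop-helix factors, in Dll1. Each run is the 250 bases before a RefSeq start site on GRCm38.p6, on the strand of the gene, and both strands were searched.
Hes5 (chr4:154960673-154960922, plus strand): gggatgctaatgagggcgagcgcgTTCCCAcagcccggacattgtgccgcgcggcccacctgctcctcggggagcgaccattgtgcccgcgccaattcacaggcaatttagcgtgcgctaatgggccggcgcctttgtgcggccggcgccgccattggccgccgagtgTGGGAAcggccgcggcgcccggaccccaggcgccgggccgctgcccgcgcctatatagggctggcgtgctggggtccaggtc
Lfng (chr5:140607091-140607340, plus strand): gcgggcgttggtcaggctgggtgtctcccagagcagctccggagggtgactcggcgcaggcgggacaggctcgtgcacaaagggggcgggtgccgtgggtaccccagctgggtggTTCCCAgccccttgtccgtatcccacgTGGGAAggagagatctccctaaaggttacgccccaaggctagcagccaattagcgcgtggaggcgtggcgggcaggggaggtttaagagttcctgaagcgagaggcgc
Dll1 (chr17:15376933-15377182, minus strand): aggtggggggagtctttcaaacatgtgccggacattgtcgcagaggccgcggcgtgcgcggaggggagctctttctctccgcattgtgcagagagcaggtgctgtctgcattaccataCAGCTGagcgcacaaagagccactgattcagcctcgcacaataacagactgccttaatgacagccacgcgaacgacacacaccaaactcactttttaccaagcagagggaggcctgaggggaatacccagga
Hes5 held 2 matches of the RBPJ core, beginning 226 and 82 bases before the start site, and Lfng held 2, beginning 135 and 108 bases before it. Of 32851 RefSeq windows of this length 21.6% held at least 1 such match, so the presence of the letters is common. The Dll1 window held 1 CAGCTG, which 13.0% of windows held, and the window of the other Dll1 start site had none. Lfng also held 1 CAGCTG, left in lower case. Among windows searched and not shown, that of the Notch target Nrarp held no RBPJ core, nor did those of Notch1 and Notch3. Those of Fabp7 and Shisa2 held 1 each. The windows of Dll3 and Gadd45g held 1 CAGCTG each. A match is a run of letters and not a site shown to be used.

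How the members vary among themselves was read in the 571 cells that could be thinned to 3000 UMIs, split by whether a UMI of a given gene was left. A cell without a UMI may still express the gene. The split leaves 103 cells with a Dll1 UMI and 468 without. Gadd45g stood at 654 CPM with and 167 CPM without Dll1, a ratio of 3.92 [3.23–4.76], and Dll3 at 149 CPM with and 40.6 CPM without, a ratio of 3.67 [2.43–5.5]. Cells with the ligand thus also held more of Gadd45g and Dll3. Notch targets lay the other way. Hes5 was at 369 CPM with and 619.7 CPM without, a ratio of 0.595 [0.485–0.724], and Nrarp at 68 CPM with and 129.6 CPM without, a ratio of 0.524 [0.317–0.826]. Lfng lay at 6.47 CPM with and 48.4 CPM without, a ratio of 0.134 [0.0159–0.502], while Mfng stood at 188 CPM with and 68.4 CPM without, a ratio of 2.75 [1.95–3.84]. The 2 fringe genes therefore divided the members in opposite ways, as they did inside and outside the gate. Among radial glia genes Fabp7 was at 463 CPM with and 1743 CPM without and Slc1a3 at 77.7 CPM with and 261 CPM without. Notch1 itself was at 301 CPM with and 260.0 CPM without, a ratio of 1.16 [0.912–1.46] that includes 1, and so did Mki67 at 1.13 [0.947–1.34].

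The same split was made in the other libraries, and its values are given beside those of the LGE. The ratio for Hes5 was 0.643 [0.537–0.765] in MGE, 0.633 [0.464–0.847] in CGE and 0.862 [0.636–1.14] in CTX. The ratio for Lfng was 0.713 [0.297–1.48] in MGE, 0.746 [0.229–1.9] in CGE and 0.412 [0.0841–1.23] in CTX, all with intervals that include 1, and rests on few UMIs in each library. The ratio for Gadd45g was 3.44 [2.69–4.38] in MGE, 2.99 [1.88–4.68] in CGE and 13.1 [10.4–16.4] in CTX. A Dll1 UMI was left in 65 MGE, 25 CGE and 38 CTX cells. Differences between libraries in these ratios were not tested.

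**Figure D5:**
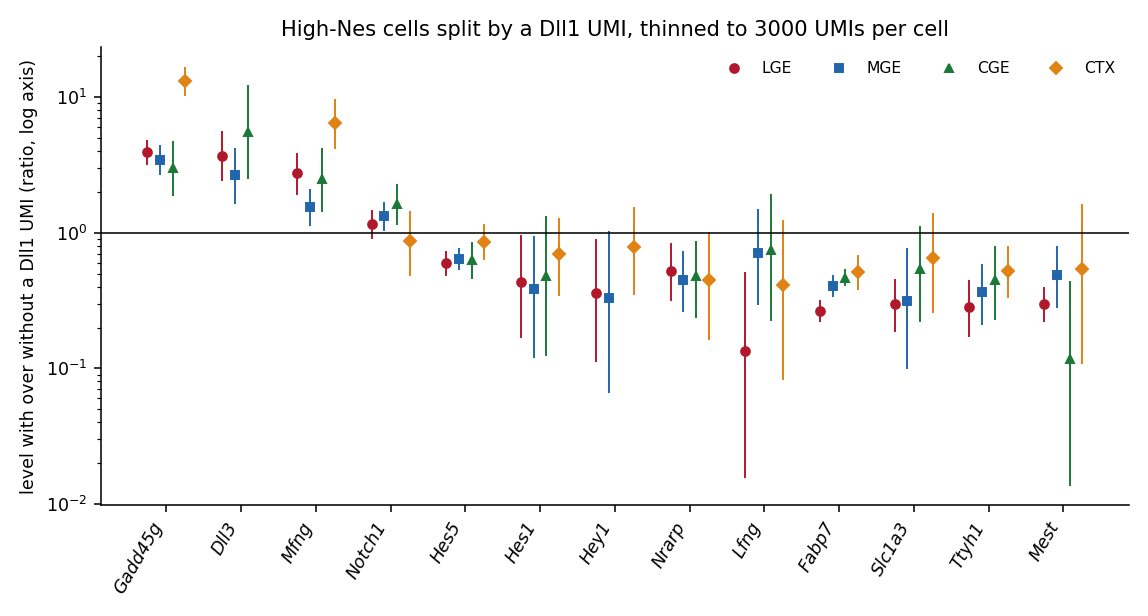
Ratio (log axis) of the level of 13 genes in cells with over cells without a Dll1 UMI, among cells of the gate thinned to 3000 UMIs, in LGE, MGE, CGE and CTX, with exact 95% intervals for counting error. Gadd45g, Dll3 and Mfng lie above 1 in LGE, and Hes5, Hes1, Hey1, Nrarp, Lfng, Fabp7, Slc1a3, Ttyh1 and Mest below 1. Dll3 in CTX and Hey1 in CGE had fewer than 30 UMIs and are not drawn.

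A Gadd45g UMI was left in 160 members. Hes5 was at 300.0 CPM with and 681 CPM without Gadd45g, a ratio of 0.44 [0.366–0.526], and was found in 67 of the 160 cells. Notch2 and Notch3 had ratios of 0.304 [0.134–0.608] and 0.231 [0.103–0.457], while Notch1 had 1.1 [0.891–1.34]. Sparc lay at 18.8 CPM with and 152 CPM without, a ratio of 0.124 [0.0557–0.24], and Ptx3 at 18.8 CPM with and 132 CPM without, a ratio of 0.142 [0.0637–0.276]. Insm1, a factor gene of committed progenitors, stood at 669 CPM with and 129.8 CPM without, a ratio of 5.15 [4.25–6.27]. Ccnd2 was at 1723 CPM with and 816 CPM without and Ccnd1 at 423 CPM with and 409.6 CPM without, so the cyclins parted within the members as well. Mest stood at 156 CPM with and 672 CPM without, a ratio of 0.232 [0.181–0.295], and Mki67 at 523 CPM with and 486 CPM without, a ratio of 1.08 [0.925–1.25]. In the CTX cells the ratio for Hes5 was 0.822 [0.702–0.959].

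Pax6, a marker of the dorsal side, and Gsx2 were also used as splits. A Pax6 UMI was left in 104 members and a Gsx2 UMI in 102, and 20 cells held both. Slc1a3 lay at 442 CPM with and 181 CPM without Pax6, a ratio of 2.45 [1.98–3.03], and Insm1 at 147 CPM with and 310.5 CPM without, a ratio of 0.475 [0.342–0.644]. The Slc1a3 ratio was 1.07 [0.557–1.9] in CGE and 1.05 [0.811–1.38] in CTX. With Gsx2 the order was different. Gadd45g stood at 493 CPM with and 203 CPM without Gsx2, a ratio of 2.44 [1.99–2.98], while Hes5 had a ratio of 0.88 [0.737–1.04]. Gadd45g was thus higher with Gsx2, and Slc1a3 with Pax6. The ratio of Pax6 in the Gsx2 split was 1.14 [0.704–1.78], an interval that includes 1.

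Shisa2 divided the members along another line. A UMI was left in 197 of them, and Gadd45g had a ratio of 0.907 [0.737–1.11]. Isl1 and Ebf1, factors of striatal projection neurons, was at 8.46 CPM with and 39.2 CPM without Shisa2 and at 8.46 CPM with and 36.5 CPM without, ratios of 0.216 [0.0668–0.543] and 0.232 [0.0714–0.585], on 49 and 46 UMIs in all. Sp9, a factor of GABAergic precursors, lay at 47.4 CPM with and 125 CPM without, Mest at 699 CPM with and 438 CPM without and Cntnap2 at 77.8 CPM with and 41.9 CPM without. Isl1 and Ebf1 also lay low in the 339 members with a Mki67 UMI, at 12.8 CPM with and 51.7 CPM without Mki67 for Isl1 and 5.9 CPM with and 57.5 CPM without for Ebf1. The few Isl1 and Ebf1 UMIs of the gate therefore lay mostly in members without Mki67 or Shisa2.

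Ligands and receptors of other pathways were read the same way. In the Wnt list 5 of 7 measured genes stood at least 2-fold higher than in the other LGE cells and none lower, at a median log2 ratio of 1.44. The receptor gene Fzd8 stood at 148 CPM in the VZ cells and 39.1 CPM in the other LGE cells, the secreted inhibitor gene Sfrp1 at 528 CPM in the VZ cells and 128 CPM in the other LGE cells and the effector gene Tcf7l2 at 82.3 CPM in the VZ cells and 30.3 CPM in the other LGE cells. Across regions Fzd8 was at 148 CPM in LGE, 47.1 in MGE, 76.5 in CGE and 86.3 in CTX, highest in the LGE, whereas the ligand Wnt7b lay at 7.14 CPM in LGE, 41.6 in MGE, 199 in CGE and 18.4 in CTX, lowest in the LGE. Sfrp1 stood at 528 CPM in LGE, 193 in MGE, 582 in CGE and 858 in CTX. The Wnt list had a median log2 ratio of 0.64 against the MGE, with 3 of 7 genes at least 2-fold higher (Fzd8, Sfrp1 and Shisa2), and of 0.20 against the CGE and 0.13 against the CTX.

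In the FGF list 3 of 4 measured genes stood at least 2-fold higher than in the other LGE cells (Fgfr1, Fgfr2 and Shisa2), at a median log2 ratio of 1.19. Over all genes 4.43% stood so. Shisa2, a marker of the label, is counted in both the Wnt and the FGF list, so these counts overlap. Fgfr2 was at 94.8 CPM in LGE, 66 in MGE, 83.8 in CGE and 47 in CTX, with a ratio of LGE to CGE of 1.13 [0.929–1.39], and Fgfr3 at 36.1 CPM in LGE, 52.1 in MGE, 137 in CGE and 112 in CTX, lowest in the LGE. The Hedgehog list had 2 of 3 measured genes at least 2-fold higher than in the other LGE cells, Smo at 68.6 CPM in the VZ cells and 31.2 CPM in the other LGE cells and the transcription factor Gli3 at 107 CPM in the VZ cells and 32.5 CPM in the other LGE cells. Its coreceptor genes Gas1 and Cdon followed the dorsal side, Gas1 at 80.7 CPM in LGE, 4.36 in MGE, 68.6 in CGE and 735 in CTX and Cdon at 31.7 CPM in LGE, 3.37 in MGE, 0.66 in CGE and 165 in CTX. The receptor and target gene Ptch1 lay at 26.8 CPM in LGE, 53.1 in MGE, 75.2 in CGE and 1.54 in CTX, so the LGE lay between the cortex and both other eminences. The ligand gene Shh had no UMI in the LGE, CGE and CTX cells of the gate and lay at 0.396 CPM in the MGE ones, so it was at or near 0 in all of them. Of the Id genes, which inhibit basic helix-loop-helix factors, Id4 stood at 176 CPM in LGE, 80.0 in MGE, 71.2 in CGE and 571 in CTX and Id1 at 23.4 CPM in LGE, 49.5 in MGE, 89.7 in CGE and 11.6 in CTX.

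Mki67, a mark of cycling cells, was detected in 59.4% [55.2–63.4] of the members once each cell had been thinned to 3000 UMIs (74.4% at full depth) and in 32.3% [30.8–33.7] of the other LGE cells (41% at full depth). Free RNA is included in both shares. The summed level of the 18 G2 and mitosis genes was 6299.6 CPM in the LGE VZ cells, 4579 CPM in the other LGE cells, 4645 in MGE, 4299.5 in CGE and 5239 in CTX cells of the gate. All 18 lay under 2-fold in each comparison. Each of the 18 was higher in the LGE than in the MGE and the CGE, and 17 were higher than in the CTX. The median log2 ratios were 0.46, 0.54 and 0.29 against MGE, CGE and CTX, where those over all genes were 0.03, 0.02 and 0.01. Outside the gate the list summed to 4579 CPM in LGE, 4440 in MGE, 1712 in CGE and 2899 in CTX cells, so the LGE was highest there too. The S phase list lay at median log2 ratios of −0.18, 0.17 and 0.14 against MGE, CGE and CTX cells of the gate. Against the other LGE cells 3 of 16 measured S phase genes stood at least 2-fold higher and none lower, and of 9 measured G1 regulators 3 stood higher (Ccnd1, Ccnd3 and Cdk6) and 1 lower (Cdkn1c). Ccnd1 was at 406 CPM in the VZ cells and 107 CPM in the other LGE cells, whereas Ccnd2 lay at 1018 and 1277 CPM. Across regions Ccnd2 was at 1018, 529, 371 and 904 CPM in LGE, MGE, CGE and CTX, with a ratio of LGE to CTX of 1.13 [1.09–1.17]. The inhibitor gene Cdkn1c, high as cells leave the cycle, stood at 17.8 CPM in the VZ cells and 116 CPM in the other LGE cells.

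Matrix and secreted genes were compared between regions as well. Of 10 measured against the MGE, 2 stood at least 2-fold higher in LGE (Ptx3 and the growth factor gene Ptn) and 2 lower (Sparc and Bcan), at a median log2 ratio of −0.15. Ptx3 was at 92.2 CPM in LGE, 24.4 in MGE, 290.2 in CGE and 5.14 in CTX, and Sparc at 131 CPM in LGE, 272 in MGE, 199 in CGE and 92.3 in CTX. Against the CGE 2 of 9 stood lower (Ptx3 and the adhesion gene Vcam1), and against the CTX 1 of 9 stood higher (Ptx3), at medians of −0.68 and 0.17. Ptx3 was thus at its highest in the CGE. Over all genes, 1.71% stood at least 2-fold higher and 1.1% lower in LGE than in MGE VZ cells. These shares were 1.26% and 2.03% against the CGE, and 3.47% and 2.73% against the CTX.

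The study named 21 VZ genes from cells that include these, so their levels here are not independent evidence. Against the other LGE cells 9 of 15 measured ones stood at least 2-fold higher and none lower. Against the MGE, CGE and CTX cells of the gate, 7, 6 and 7 stood higher and 2, 7 and 3 lower. Those not given above include Ednrb at 147 CPM in LGE, 241 in MGE, 359 in CGE and 54.9 in CTX, Pkdcc at 177 CPM in LGE, 111 in MGE, 56.1 in CGE and 64.4 in CTX and Igfbp5 at 28.8 CPM in LGE, 56.3 in MGE, 257 in CGE and 73.9 in CTX. Bcan had 1 UMI in the LGE VZ cells and lay at 56.3 CPM in the MGE.

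Other cell types were few among the members. Cells with 3 or more genes of an endothelial, pericyte or microglial list numbered 5 of 589, with 4 by the endothelial, 4 by the pericyte and none by the microglial list. The summed endothelial list stood at 57.7 CPM in the members and 12 CPM in the other LGE cells, and the pericyte list at 53.3 and 12.4 CPM. The microglial list was at 1.39 and 60.5 CPM, with 7 of its 10 genes at 0 in the members. Glutamatergic neuron genes summed to 0.595 CPM, and Pdgfra and Sox10, which define oligodendrocyte precursors, were at 0. Genes of dissociation stress summed to 280.2 CPM in the members, 151 CPM in the other LGE cells, 237 in MGE, 272 in CGE and 574 in CTX cells of the gate, of which Jun made up 222 CPM in the members. Red blood cell genes summed to 13.9 and hem and choroid plexus genes to 35.1 CPM, of which Otx2 made up 34.5. The part of these cells and of stress in the values above was not tested, and removing the non-neural cells or the predicted doublets left every count of genes past 2-fold within 1.5 times its value.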

How the data were processed

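The authors deposited UMI counts per gene and barcode for 4 droplet libraries, filtered by Cell Ranger (3.0.0 in the submitters' processing notes, 3.0.2 in the file headers) on mm10. The annotation release and the use of strand are not given in the sources used here. The labels describe sorting of live cells, whereas the study's methods state that wild-type cells were not sorted. Barcodes with more than 1500 and fewer than 4500 genes, under 5% mitochondrial UMIs and under 1% Hbb- UMIs were kept, 16544 of 24193. Depth was 5042850 UMIs over the LGE VZ cells and 1515986 over the CGE cells of the gate, the shallowest sum. Counts were summed per group and given as CPM. Genes at 50 CPM in either sum were compared at a limit of 2-fold, with exact conditional binomial intervals for ratios and Clopper-Pearson intervals for shares, which take UMIs and cells as independent. A gene at 0 was set against 3 UMIs. Named genes were the 10 with the highest and the 10 with the lowest ratio by the interval bound nearest 1, against the other LGE cells and against the nearest of the 3 regions. Some of these are not reported here. Shares and splits used cells thinned to 3000 UMIs, and a split needed 20 cells and a gene 30 UMIs. Doublets were predicted from simulated neighbours at a rate of 0.8% per 1000 barcodes. Members and lists were chosen with earlier results of these data known. The ratios, intervals, 2-fold counts and thinning were tested on simulated data, with UMIs drawn as independent, as the intervals assume. The other steps were not tested in this way. Python 3.11.15, numpy 2.4.6, pandas 2.3.3, scipy 1.17.1, scikit-learn 1.9.0 and matplotlib 3.10.9 were used, with gene positions from GENCODE M21 on GRCm38.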

Additional observations from a re-analysis of the deposited data

Results flagged for a closer look

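Cntnap2 and Vcan had log2 ratios across the gate of another sign in the LGE than in the other libraries. They were chosen after their values were seen. The log2 ratio of Cntnap2 in cells of the gate over the other cells of the library was 0.50 in LGE, -0.38 in MGE, -2.58 in CGE and -1.66 in CTX. The MGE value, a ratio of 0.769 [0.5–1.14] with 28 UMIs in the gate, has an interval that includes 1. The CGE value rests on 5 UMIs in the gate. The log2 ratio of Vcan, a proteoglycan gene, was -1.30 in LGE, 0.48 in MGE, 0.09 in CGE and 0.11 in CTX, small in the CGE and CTX. With 1 library per region these differences were not tested. Many annotated genes lie within Cntnap2, and no source states whether reads were counted by strand.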

How the results depend on the processing

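No paired analysis was possible because each region gave 1 library and no test was made. The gate held 12.2% of LGE cells, and 23.4% with Nes above 1.0, 3.43% with Nes above 2.0, 13.9% without the Dcx limit, 13.6% without the upper gene limit and 8.54% after thinning to 3000 UMIs. At 20 CPM in either sum, 429 genes stood 2-fold higher and 566 lower than in the other LGE cells, 129 and 101 against MGE, 130 and 181 against CGE and 290 and 221 against CTX. With no level filter beyond 3 UMIs these pairs were 3627 and 1760, 1047 and 946, 809 and 1461, and 1619 and 1132. The 50 CPM filter gave 184 and 301, 67 and 43, 51 and 82, and 141 and 111. Against the CGE, 77 genes stood higher with Nes above 2.0 and 105 after thinning. The log2 ratio of Rgs5, a pericyte gene, over the CGE was 2.19 after thinning, from the opposite side at full depth. The cause was not tested. Over the alternatives, 1231 ratios of single genes left their counting interval, 4151 stayed and 1 turned. After thinning 319 left it and 353 stayed, with Nes above 2.0 328 and 344, and with Nes above 1.0 245 and 428. Of the list medians 17 left a rank interval taken over the genes of the list and 471 did not. Removing predicted doublets or non-neural cells moved no count by over 1.5 times. Depth limits the CGE sum most, and intervals do not cover differences between embryos, dissections or library preparations.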
